A study of Saccharomyces cerevisiae W303 with 28 samples.

Results

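Cohesin binding in rad17 pds5-AID cells was set against that in pds5-AID cells, both with an induced double-strand break. Cohesin was followed by chromatin immunoprecipitation sequencing (ChIP-seq) of 6HA-tagged Scc1, so the comparison asks what the loss of Rad17 changes in cells that carry a Pds5 degron. It holds 8 of the 28 libraries of the series, namely the immunoprecipitates (IP) of rad17 pds5-AID and pds5-AID cells, 2 replicates each, and the 4 whole-cell extracts that belong to them. All were chosen by strain and treatment from their labels.

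Every cell sample was budding yeast taken 4 h after galactose addition. The rad17 pds5-AID strain carries Scc1-6HA, the rad17 mutation and pds5-AID, and the pds5-AID strain carries Scc1-6HA and pds5-AID. The break was induced in both, and both were held in nocodazole, which arrests cells in mitosis by removing microtubules. The rad17 strain (PDS5) and the wild-type strain (PDS5, RAD17), both with Scc1-6HA, a break and nocodazole and 2 replicates each, give the matching comparison without the degron. An untagged strain with break and nocodazole (n = 1) gives the background, and wild-type Scc1-6HA cells with nocodazole and a site that cannot be cut (n = 1) give the level without a break. A treatment entry of that strain names break induction, and its title was followed. The labels do not mention auxin, which triggers the degron, so the extent of Pds5 depletion is not known here. Neither mutant has an uncut library, so a weaker gain after the cut and a lower level before it cannot be told apart. The labels do not call the replicates separate cultures, and p-values then cover only the spread between libraries, which can be technical.

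Cohesin is a ring that holds sister chromatids together and forms loops along a chromatid, and Scc1 (gene MCD1) is the kleisin subunit that closes the ring. In budding yeast it is most abundant around centromeres and at spaced sites along the arms, and it is loaded over a wide domain beside a double-strand break. Rad17 is a subunit of the checkpoint clamp (with Ddc1 and Mec3) that is placed at resected DNA ends and helps to activate the Mec1 kinase. Pds5 binds the ring, takes part in its maintenance and release, and limits loop extension.

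The deposited values are read coverage in windows of 1 kb. The IPs were calibrated with a Candida glabrata spike-in, which makes their levels comparable between libraries. Median IP coverage was 25.9 and 70.6 reads per window in rad17 pds5-AID and 54.2 and 66.5 in pds5-AID, and rad17 pds5-AID replicate 1 was the shallowest of the 8 HA libraries with a break. These depths take the smallest value above 0 in each IP as coverage by 1 read, an assumption. Replicates correlated over windows at r = 0.973 in rad17 pds5-AID and 0.976 in pds5-AID, and replicate 2 stood above replicate 1 by a median log2 of 0.28 in rad17 pds5-AID and 0.50 in pds5-AID. The wild-type replicate 2 extract was uneven along the genome (SD of log2 coverage 0.493, against 0.235 to 0.265 in the other 7 extracts with a break and a tag). It is part of the spread estimate and of the comparison of rad17 with wild type.

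Scc1 was lower in rad17 pds5-AID cells over nearly the whole genome, and the deficit was deepest beside the break. The genome level, the median over windows of log2 IP over extract, was 2.64 and 2.88 in rad17 pds5-AID and 3.23 and 3.72 in pds5-AID. Both rad17 pds5-AID libraries thus lay below both pds5-AID libraries, and all 4 lay above the untagged strain at 0.99. The step from 2.88 to 3.23 between the strains was smaller than that from 3.23 to 3.72 between the pds5-AID replicates. The means were 2.76 ± 0.17 and 3.47 ± 0.34 (rad17 pds5-AID and pds5-AID, SD, n = 2 each), a difference of -0.71, or 61.0% of the pds5-AID level. The difference was -0.59 between the first replicates and -0.83 between the second, -0.96 without pds5-AID replicate 1 and -0.47 without pds5-AID replicate 2. The two-sided exact permutation test gave p = 0.333, the smallest that 2 libraries against 2 allow. Against the untagged strain the linear level was 3.13-fold and 3.71-fold higher in rad17 pds5-AID, and 4.71-fold and 6.60-fold higher in pds5-AID. In PDS5 cells the difference without Rad17 was -0.53 (3.37 and 3.67 in rad17, 3.95 and 4.15 in wild type, exact permutation p = 0.333, n = 2 each).

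Over single windows on this calibrated scale the difference was below 0 in 11624 of 11638, with a median of -0.67 and a central 95% from -1.10 to -0.27. Both rad17 pds5-AID libraries lay below both pds5-AID libraries in 9954 windows (85.5%). Windows of a library share its calibration, so these counts are not separate support for the difference in genome level. With each window's own residual spread limma called 0 of 11638 (0%, Benjamini-Hochberg adjusted p under 0.05) in either direction, with 3847 at an unadjusted p under 0.05, and 0 of 139 regions (0%), with 55 at an unadjusted p under 0.05 and a smallest adjusted p of 0.0664. Without pds5-AID replicate 1 that count of regions was 94, all lower. The counts of 0 in the fit of all libraries did not hold with a replicate term, which is given with the processing alternatives. A limma fit with moderated spread, which borrows spread across windows, called 3495 windows. All windows of a library share its calibration error, so that moderated fit takes the error as known. For this reason the tests below were made after subtracting each library's genome level, and "relative" denotes those values.

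Relative to the genome level, the change was concentrated on the cut chromosome. In limma 41 windows fell (0.352%) and 5 rose (0.043%), and 36 of the 41 falls lay within 100 kb of the break, a stretch that holds 195 of the 11638 windows. No window there rose. Both rad17 pds5-AID libraries lay below both pds5-AID libraries in 154 of those 195 windows (79.0%), against 1667 (14.3%) of all windows. They lay above both in 3 of the 195, against 2719 (23.4%) of all windows. The median relative difference was -0.51 within 100 kb of the break, -0.061 on the rest of chromosome 5 and 0.050 on the other chromosomes. Across the 195 windows the difference between the first replicates and that between the second correlated at r = 0.890 (Spearman 0.809), against r = 0.265 (Spearman 0.239) across the 11093 windows of the other chromosomes. Windows of a library share its depth and neighbours, so these correlations are descriptions. The count of 46 called windows depended on the fit. With each window's own spread limma called 0 (705 at an unadjusted p under 0.05), so none of the 41 falls passed. It called 125 (23 higher, 102 lower) with the IP alone and 93 (14 higher, 79 lower) with only the 4 compared libraries. The count was 27 and 20 without rad17 pds5-AID replicate 1 or 2, 30 and 26 without pds5-AID replicate 1 or 2, and 112 and 110 without wild-type replicate 1 or 2.

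**Figure D1:**
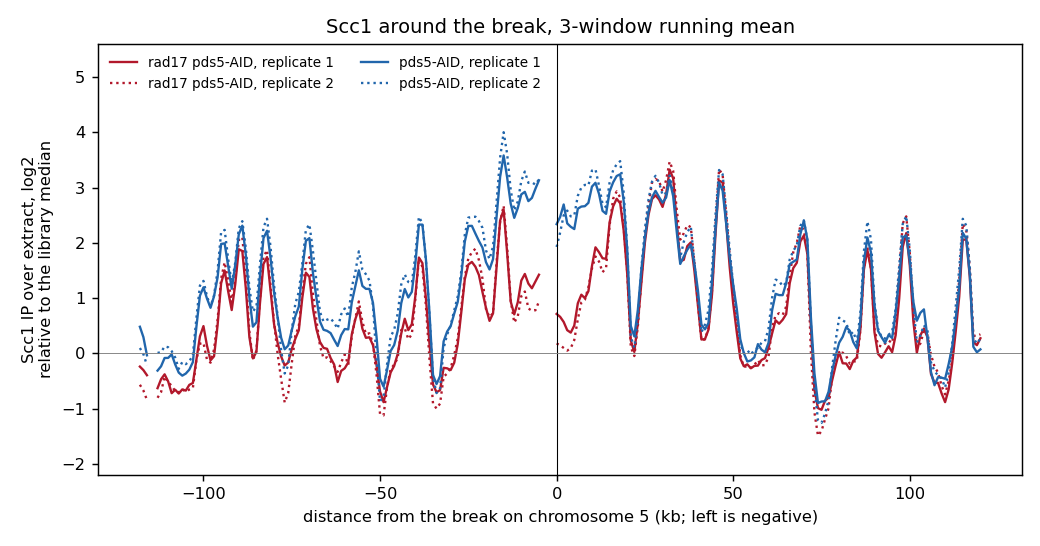
Scc1 IP over extract along chromosome 5 (y axis, log2 relative to the library median, 3-window running mean) by distance from the break (x axis, kb, left is negative), 1 line per library. Next to the break both rad17 pds5-AID lines run below both pds5-AID lines, while at the cohesin maximum 37 kb to the right the lines lie together.

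The break was placed at chromosome 5, 119001 to 120000, the centre of the lowest ratio of cut to uncut extracts. In the first 5 kb to its right the extracts with a break stood at 14.96% to 28.7% of their median, and most of its windows passed the extract filter through the single no-break extract (122%), so this class rests on thin coverage. Relative Scc1 there was 0.50 and 0.070 in rad17 pds5-AID cells and 2.67 and 2.82 in pds5-AID cells. At 5 to 10 kb left it was 1.47 and 1.09 in rad17 pds5-AID and 3.08 and 3.44 in pds5-AID. At 5 to 10 kb right it was 1.24 and 1.200 in rad17 pds5-AID and 2.83 and 3.23 in pds5-AID. In all 3 classes both rad17 pds5-AID libraries stood far below both pds5-AID libraries, by more than the gap between replicates of either strain. Scc1 fell by 2.46 ± 0.15 (SE) in the class at 0 to 5 kb right, by 1.98 ± 0.17 in that at 5 to 10 kb left and by 1.81 ± 0.12 in its right counterpart, to 18.1%, 25.3% and 28.5% of the relative pds5-AID level (limma, adjusted p = 1.29e-06, 9.09e-06 and 1.29e-06). All 15 windows of these classes passed the test singly, with relative differences of -2.41 to -1.60.

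On the calibrated scale, which keeps the loss of genome level, the same classes differed by more. The 0 to 5 kb right class had 3.14 and 2.95 in rad17 pds5-AID and 5.90 and 6.53 in pds5-AID, or 11.1% of the pds5-AID level. The left class at 5 to 10 kb had 4.10 and 3.97 in rad17 pds5-AID and 6.31 and 7.16 in pds5-AID (15.5%), and the right class had 3.88 and 4.08 in rad17 pds5-AID and 6.06 and 6.95 in pds5-AID (17.4%). Scc1 in rad17 pds5-AID was still above background: at 5 to 10 kb left it stood 6.48-fold over the untagged strain, against 41.9-fold in pds5-AID, and at 0 to 5 kb right 3.41-fold, against 30.8-fold in pds5-AID. In wild-type cells without a break the class at 0 to 5 kb right held 3.30, and those at 5 to 10 kb held 4.71 left and 3.45 right (n = 1). The rad17 pds5-AID values thus lay below that single library in the first 2 of these classes and above it in the third, with no test. This scale keeps the genome level, which was 3.93 in that library, against 2.64 and 2.88 in rad17 pds5-AID. Relative to the genome level, that library lay below rad17 pds5-AID at the window with the largest fall in each of the first 2 classes. It had -0.34 at 121001 to 122000 (rad17 pds5-AID 0.55 and 0.075) and 0.30 at 113001 to 114000 (rad17 pds5-AID 1.19 and 0.89). That library's extract is itself uneven (66.8% of its median at 5 to 10 kb left, but 122% at 0 to 5 kb right).

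The difference was present in the IP before any division. Mean IP signal at 5 to 10 kb left was 6.15 and 4.86 in rad17 pds5-AID and 28.2 and 38.4 in pds5-AID, with 0.85 in the untagged strain. At 5 to 10 kb right it was 6.33 and 5.55 in rad17 pds5-AID and 30.6 and 42.4 in pds5-AID. At 0 to 5 kb right it was 2.52 and 2.02 in rad17 pds5-AID and 14.6 and 13.8 in pds5-AID. With the IP alone the calibrated differences at 5 to 10 kb were -2.59 left and -2.61 right and passed the test on their own spread (limma, adjusted p = 0.0295 and 0.0467). With IP divided by extract these classes did not pass on the calibrated scale, where limma called 0 of 139 regions (smallest adjusted p 0.0664).

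Extract coverage beside the break was low in both strains. At 5 to 10 kb left it was 35.7% and 30.9% of the library median in rad17 pds5-AID and 35.6% and 26.9% in pds5-AID, so the strains overlapped. At 0 to 5 kb right it was 28.7% and 26.0% in rad17 pds5-AID and 24.4% and 14.96% in pds5-AID, where the higher coverage in rad17 pds5-AID enters the division and moves the class from a relative difference of -1.95 in the IP alone to -2.46. At 10 to 20 kb left the order was the other way, with 67.4% and 59.96% in rad17 pds5-AID and 80.0% and 71.3% in pds5-AID, and likewise at 10 to 20 kb right, with 73.8% and 69.7% in rad17 pds5-AID and 88.5% and 83.8% in pds5-AID. None of 139 extract regions (0%) passed the test in limma (4 at an unadjusted p under 0.05, smallest adjusted p 0.988). Of the 5 windows at 0 to 5 kb left 1 passed the extract filter, with a relative difference of -1.81, so that class was not fitted.

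**Figure D2:**
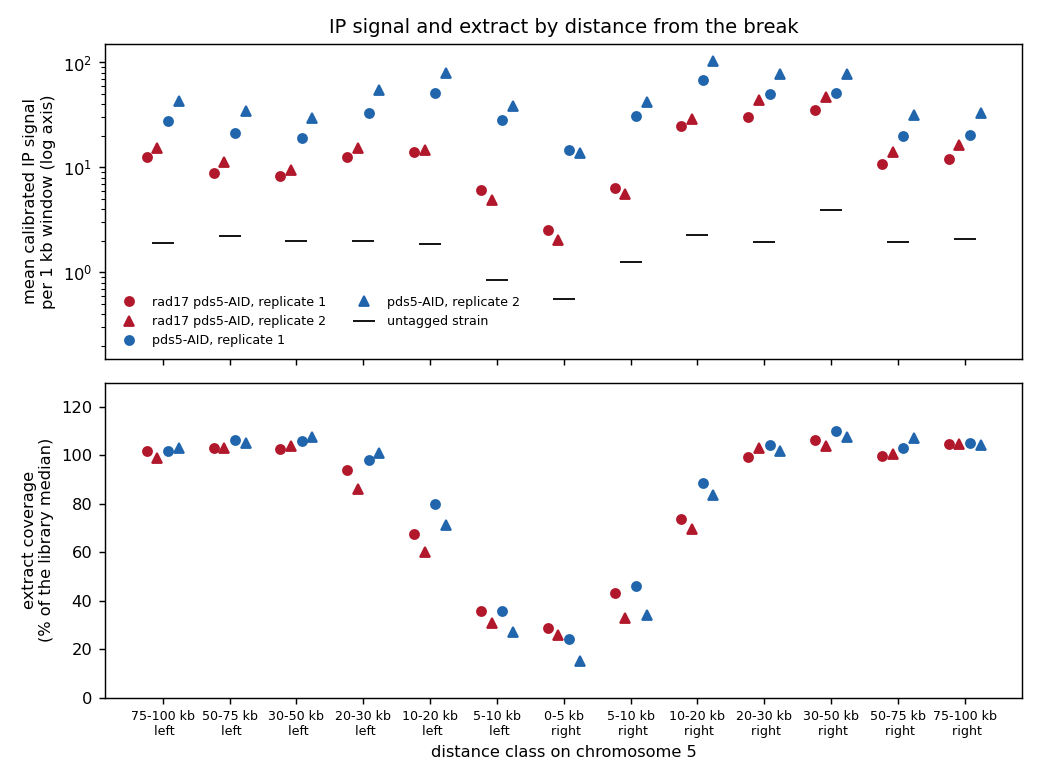
Mean calibrated IP signal per 1 kb window (upper panel, log axis) and extract coverage as a percent of the library median (lower panel) by distance class on chromosome 5, 1 point per library, with the untagged strain as dashes. At 5 to 10 kb the rad17 pds5-AID IPs lie between 4.86 and 6.33 and the pds5-AID IPs between 28.2 and 42.4, while the extracts of both strains overlap there.

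On the left each of the 6 fitted classes out to 100 kb fell, and on the right 4 of 7 did. On the left, relative Scc1 at 10 to 20 kb was 1.73 and 1.73 in rad17 pds5-AID and 2.77 and 3.07 in pds5-AID, a fall by 1.19 ± 0.10 (adjusted p = 8.91e-06). At 20 to 30 kb left it was 1.12 and 1.28 in rad17 pds5-AID and 1.86 and 2.05 in pds5-AID, a fall by 0.76 ± 0.09 (adjusted p = 9.28e-05). From 30 to 100 kb left the 3 classes fell by 0.65, 0.69 and 0.55 (adjusted p = 0.000150, 0.000110 and 0.000104), with no overlap between the strains in any of them. The outermost class, 75 to 100 kb left, had 1.00 and 1.07 in rad17 pds5-AID and 1.53 and 1.65 in pds5-AID. The left classes thus kept a difference of similar size from 30 to 100 kb, after a steep decline over the first 30 kb.

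On the right the class at 10 to 20 kb had 2.44 and 2.48 in rad17 pds5-AID and 3.04 and 3.22 in pds5-AID, a fall by 0.67 ± 0.11 (adjusted p = 0.00123) that missed the threshold on its own spread (0.118). At 20 to 30 kb right the strains overlapped, with 2.31 and 2.52 in rad17 pds5-AID and 2.36 and 2.53 in pds5-AID, a difference of -0.033 ± 0.09 (adjusted p = 0.777). At 30 to 50 kb right they were 2.40 and 2.62 in rad17 pds5-AID and 2.29 and 2.47 in pds5-AID, a difference of 0.13 ± 0.09 (adjusted p = 0.392). These classes overlap the pericentromere of chromosome 5, approximated by the cohesin maximum 37 kb right of the break. Farther out the difference at 50 to 75 kb right was -0.24 ± 0.07 (adjusted p = 0.0417), a call lost without rad17 pds5-AID replicate 1 (-0.19), pds5-AID replicate 2 (-0.19) or either wild-type replicate (-0.24). At 75 to 100 kb right it was -0.18 ± 0.09 (adjusted p = 0.257). Whether the left and right sides differ was not tested.

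Of the 13 break classes 10 fell and 0 rose, against 16 of all 139 regions that fell (11.5%) and 0 that rose (0%) in the relative fit. The other 6 were 3 summary regions of the flank, chromosome 5 as a whole and 2 chromosome ends. The median relative difference was -0.67 over the break classes and 0.049 over all regions. The whole flank of 5 to 50 kb on both sides fell by 0.42 ± 0.08 (adjusted p = 0.00206), by 0.95 without the pericentromere (adjusted p = 2.33e-06) and by 1.04 at 5 to 20 kb (adjusted p = 2.48e-05). On unmoderated spreads the flank missed the threshold (adjusted p = 0.0765), while the classes nearest the break passed (0.0181 at 0 to 5 kb right and 0.0333 for the class at 5 to 10 kb left). The count of called regions was 33 (17 higher, 16 lower) without rad17 pds5-AID replicate 1. It was 92 (75 higher, 17 lower) with the untagged signal subtracted and 21 (3 higher, 18 lower) with centring on the library mean.

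**Figure D3:**
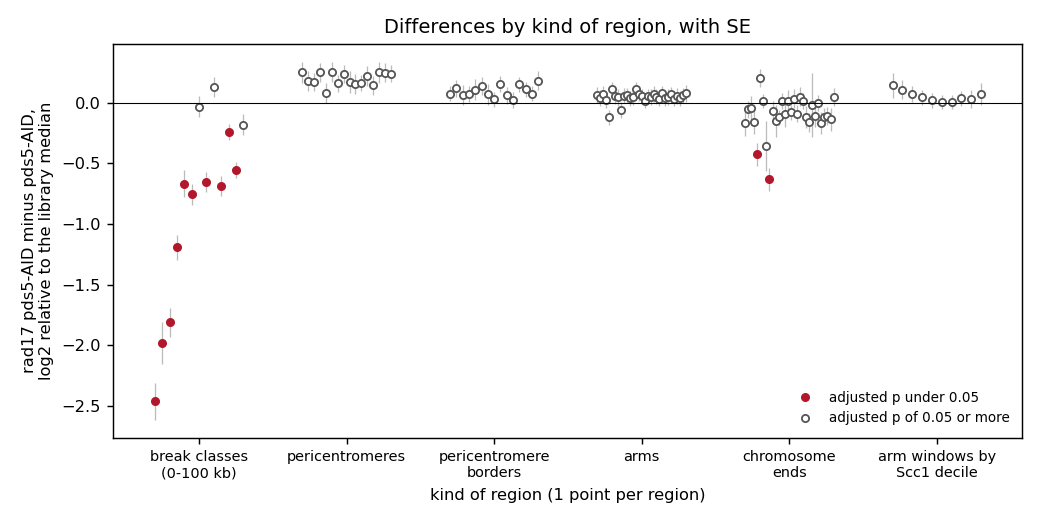
Relative difference of rad17 pds5-AID minus pds5-AID (y axis, log2, bars are SE) by kind of region (x axis), 1 point per region, filled where the adjusted p is under 0.05. The break classes reach -2.46, while the 16 pericentromeres, approximated by Scc1 maxima, lie between 0.078 and 0.25.

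The cut chromosome also took a smaller part of the IP. Chromosome 5 held 4.82% and 4.77% of the IP signal in rad17 pds5-AID and 6.04% and 6.24% in pds5-AID, while it holds 4.68% of the windows. Its share in rad17 pds5-AID lay near that of the untagged strain (4.68%) and of wild type without a break (4.71%). The stretch within 20 kb of the break took 0.395% and 0.327% in rad17 pds5-AID and 0.905% and 0.892% in pds5-AID, with 0.231% in the untagged strain and 0.337% in wild type without a break. In rad17 cells it took 0.319% and 0.328%, and in wild-type cells 0.582% and 0.639%. The share within 20 kb was thus close in rad17 pds5-AID and rad17 and higher in pds5-AID than in wild type, as values with no test between these strains. No share was divided by extract, whose coverage beside the break was low in cells with a break. The shares of wild type without a break do not carry that lower coverage. Between rad17 pds5-AID and pds5-AID the exact permutation test gave p = 0.333 for each share (n = 2 each), the smallest possible.

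Away from the break no pericentromere, border, arm or arm decile passed the relative test. Pericentromeres were approximated by the Scc1 maximum of each chromosome and were not checked against centromere positions. On chromosome 6 the maxima of Pk-tagged and HA-tagged Scc1 lay 10 kb apart, and on chromosome 16 the maximum lay at 858001 to 859000. At these 16 regions the differences were all positive, with a median of 0.20. Both rad17 pds5-AID libraries stood above both pds5-AID libraries at 12 of them, against 43 of all 139 regions (30.9%). Positive differences were about as common at borders (15 of 15), arms (29 of 31) and arm deciles (10 of 10). They were less common at chromosome ends (8 of 30) and in break classes (1 of 13). No pericentromere passed the test. The pericentromere differences ran from 0.078 on chromosome 5 to 0.25 on chromosome 4, where relative Scc1 was 2.29 and 2.45 in rad17 pds5-AID and 2.05 and 2.19 in pds5-AID. Taken as 1 region, the 16 differed by 0.20 ± 0.08 (adjusted p = 0.145), which was 0.10 without rad17 pds5-AID replicate 2 (adjusted p = 0.687), and passed without rad17 pds5-AID replicate 1 (0.29) and with the untagged signal subtracted (0.39, adjusted p = 0.000969). On the calibrated scale the pericentromeres had 5.07 and 5.50 in rad17 pds5-AID and 5.50 and 6.10 in pds5-AID, a difference of -0.52 ± 0.30 (adjusted p = 0.176), beside a genome-level difference of -0.71.

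Pericentromere borders, 15 to 30 kb from the maximum, had a median relative difference of 0.075, and the 31 arm regions had a median of 0.052 (-0.12 on the left arm of chromosome 3 to 0.11 on the right arm of chromosome 3). Arm windows binned into 10 deciles by their Scc1 in wild type without a break differed by 0.0048 to 0.14, with 0 called. The 30 chromosome ends had a median of -0.092. Both rad17 pds5-AID libraries lay below both pds5-AID libraries at 12 of the 30, against 28 of all 139 regions (20.1%), and above both at 1. The left end of chromosome 5, which lies on the cut arm, fell by 0.63 ± 0.10 (adjusted p = 0.000679). It had -0.29 and -0.44 in rad17 pds5-AID and 0.19 and 0.34 in pds5-AID. The left end of chromosome 3 fell by 0.43 ± 0.10 (adjusted p = 0.0116), with 0.69 and 0.80 in rad17 pds5-AID and 1.08 and 1.27 in pds5-AID, and missed the threshold without pds5-AID replicate 2 (-0.33). Chromosome 5 was the only one of 16 whole chromosomes to pass, with a fall by 0.29 ± 0.07 (adjusted p = 0.0128) that was also lost without pds5-AID replicate 2 (-0.22) and with only the 4 compared libraries (adjusted p = 0.0643). On their own spread chromosome 5 (adjusted p = 0.0781) and the left ends of chromosomes 5 (0.0781) and 3 (0.229) all missed the threshold.

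Joined into regions, the falling windows formed 8 stretches, 6 of them on chromosome 5. The longest lay on either side of the break. The stretch at 119001 to 133000 held 13 called windows and fell by up to 2.41 ± 0.22 at 121001 to 122000 (18.8% of relative pds5-AID), and that at 98001 to 115000 held 14 and fell by up to 2.11 ± 0.21 at 113001 to 114000 (23.1%). At the first of these peak windows relative Scc1 was 0.55 and 0.075 in rad17 pds5-AID and 2.73 and 2.71 in pds5-AID. The others on chromosome 5 lay left of the break at 17001 to 24000 (-1.13 at its peak), 64001 to 67000 (-1.04), 89001 to 91000 (-0.98) and 32001 to 33000 (-0.81). Leaving out 1 library ended the call of the peak windows of these 4 stretches in 2, 3, 6 and 6 of 8 cases, with differences between -1.19 and -0.79. For the first these were rad17 pds5-AID replicate 1 and pds5-AID replicate 2, for the second both rad17 pds5-AID replicates and pds5-AID replicate 2, and for the last 2 each library of rad17 pds5-AID, pds5-AID and rad17.

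Both falls on other chromosomes were narrow. At chromosome 16, 498001 to 500000, relative Scc1 was -0.16 and -0.20 in rad17 pds5-AID and 1.16 and 1.58 in pds5-AID, a fall by 1.55 ± 0.18 (adjusted p = 0.000552). There rad17 had 2.02 and 2.21 and wild type 2.16 and 2.17, so rad17 pds5-AID was low, pds5-AID was intermediate and the PDS5 strains lay together. At chromosome 15, 1029001 to 1030000, relative Scc1 was 0.66 and 0.52 in rad17 pds5-AID and 1.77 and 2.04 in pds5-AID, a fall by 1.31 ± 0.17 (adjusted p = 0.00107), and it was 0.39 and 0.34 in rad17 and 2.47 and 2.49 in wild type. Both strains with the rad17 mutation were thus below both strains without it. Its call was lost without rad17 pds5-AID replicate 2 (-1.24, adjusted p = 0.0540). RAD17 (YOR368W) is on chromosome 15 in the R64 gene table, whose coordinates differ from those of the files, so whether this window lies at the gene was not checked.

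The 5 rises were single windows, none on chromosome 5. The largest was at chromosome 3, 28001 to 29000, with 1.08 and 1.18 in rad17 pds5-AID and -0.57 and -0.35 in pds5-AID, a rise of 1.59 ± 0.17 (adjusted p = 0.000347), while rad17 had 0.11 and -0.11 and wild type 0.049 and 0.37. At chromosome 6, 89001 to 90000, rad17 pds5-AID had 0.60 and 0.90 and pds5-AID -0.61 and -0.91, a rise of 1.51 ± 0.18 (adjusted p = 0.000612). Both windows had rad17 pds5-AID above every other HA strain with a break. The remaining rises were at chromosome 11, 47001 to 48000 (1.39), lost without rad17 pds5-AID replicate 2 (1.32), and at chromosome 14, 352001 to 353000 (1.18), and chromosome 4, 1389001 to 1390000 (0.99), each lost without any 1 of the libraries of rad17 pds5-AID, pds5-AID and rad17 (from 1.10 to 1.27 and from 0.87 to 1.12).

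**Figure D4:**
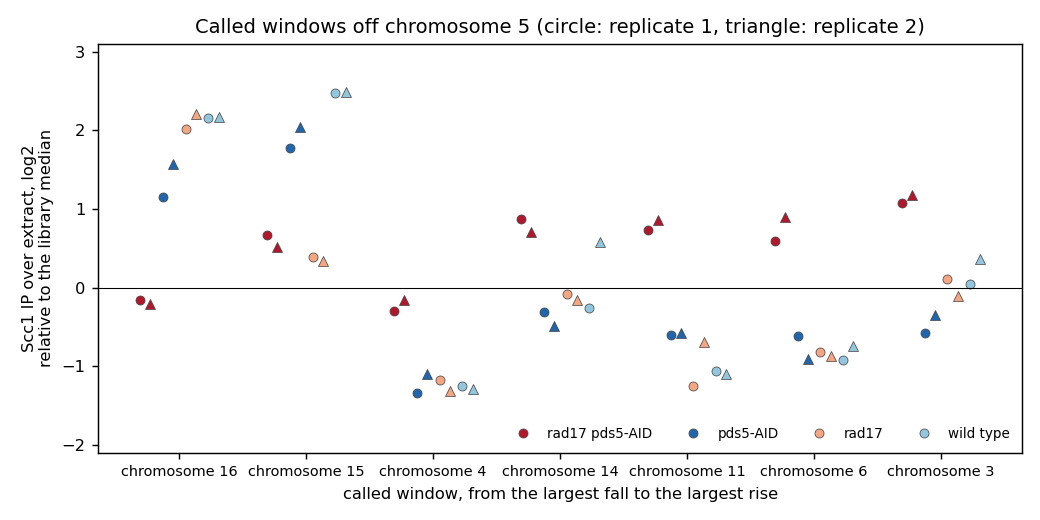
Relative Scc1 (y axis, log2 IP over extract) at the called windows off chromosome 5 (x axis, from the largest fall to the largest rise) in each of the 8 libraries (circle replicate 1, triangle replicate 2). At the chromosome 15 window rad17 pds5-AID and rad17 are both low (0.34 to 0.66), and at the chromosome 3 window rad17 pds5-AID stands alone at 1.08 and 1.18.

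Beside the break, the relative difference without Rad17 was larger in pds5-AID cells than in PDS5 cells when IP was divided by extract. The relative difference of rad17 minus wild type was -0.66 ± 0.15 at 0 to 5 kb right and -0.39 ± 0.10 at 10 to 20 kb left. In the classes at 5 to 10 kb it was -0.91 ± 0.17 left and -0.84 ± 0.12 right. At 0 to 5 kb right rad17 had 0.99 and 1.35 and wild type 1.69 and 1.98. The 4 groups share no library, and the difference of the 2 differences was tested as an interaction. It was lower in 9 of 139 regions (6.47%) and higher in 0 (0%). At 0 to 5 kb right it was -1.80 ± 0.22 (limma, adjusted p = 0.000884). At 10 to 20 kb left it was -0.80 ± 0.14 (adjusted p = 0.00674). At 5 to 10 kb it was -1.08 ± 0.24 left and -0.97 ± 0.17 right (adjusted p = 0.0245 and 0.00674). With the IP alone the 3 classes nearest the break missed the threshold, at -1.03 for 0 to 5 kb right (adjusted p = 0.0592) and, for 5 to 10 kb, -0.78 left and -0.62 right (0.0557 and 0.134).

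From 5 to 100 kb left the interaction passed in each class apart from that at 20 to 30 kb (-0.29 ± 0.12, adjusted p = 0.310). At 75 to 100 kb left the interaction was -0.59 ± 0.09 (adjusted p = 0.00536), where rad17 minus wild type was 0.032 ± 0.07. On the right no class beyond 10 kb passed, though that at 10 to 20 kb did without wild-type replicate 2 (-0.55) and that at 20 to 30 kb without rad17 pds5-AID replicate 2 (-0.44). The pericentromeres differed by -0.12 ± 0.11 (adjusted p = 0.686). On the calibrated scale limma called 0 interactions (0%; 4 at an unadjusted p under 0.05, smallest adjusted p 0.718). The relative interaction also depended on the fit: on unmoderated spreads 0 were called (17 at an unadjusted p under 0.05), with centring on the library mean 1, and with the IP alone 7 were lower and 1 higher. The call at 5 to 10 kb left was lost without rad17 pds5-AID replicate 2 (-0.89) and without wild-type replicate 1 (-0.94). That at 30 to 50 kb left was lost without pds5-AID replicate 2 (-0.47) and wild-type replicate 2 (-0.42), and that at 50 to 75 kb left without rad17 pds5-AID replicate 1 (-0.44), pds5-AID replicate 2 (-0.37) and either wild-type replicate (-0.48 and -0.51).

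**Figure D5:**
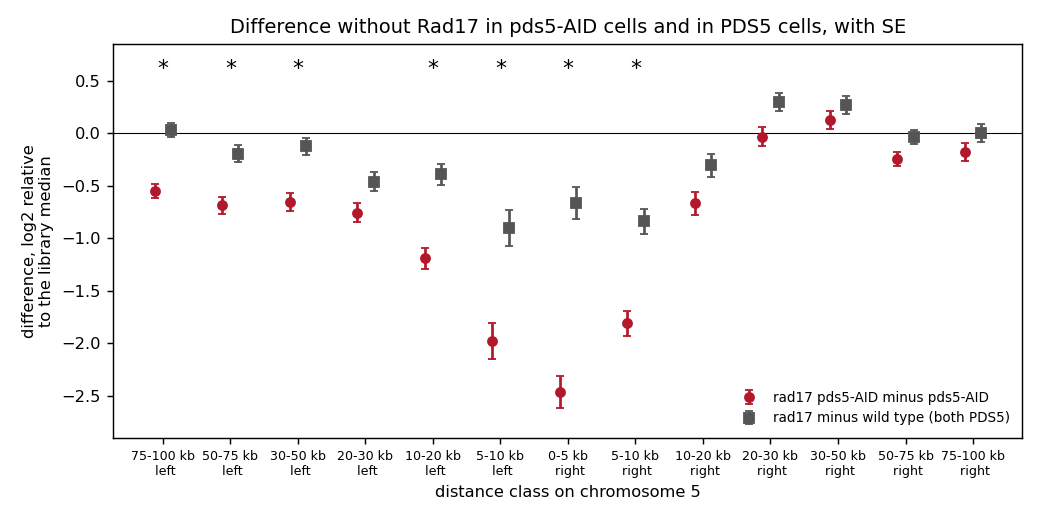
Relative difference without Rad17 (y axis, log2, bars are SE) in pds5-AID cells (rad17 pds5-AID minus pds5-AID, circles) and in PDS5 cells (rad17 minus wild type, squares) by distance class on chromosome 5 (x axis). At 0 to 5 kb right the values are -2.46 and -0.66, and at 75 to 100 kb left -0.55 and 0.032.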

How the data were processed

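The authors deposited read coverage (signal) for 12447 windows of 1 kb on 16 chromosomes. The IPs were calibrated with Candida glabrata, per the series description, and the extracts are unscaled. The submitters' processing notes name Bowtie2, SAMtools, bedtools and MACS2. With a genome build not given in the sources used here, no gene was placed.

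IP was divided by its own extract, set relative to its median, in the 11638 windows whose relative extract averaged 0.25 to 4 in the HA libraries. For windows log2 was taken after adding 5% of the library median to both sides, so folds of low windows are understated. Region values are log2 of mean IP over mean relative extract, without pseudocount. Groups follow the labels. The test was limma 3.58.1 in R 4.3.3 on the 8 HA IPs with a break (4 group means, 4 residual degrees of freedom), with each feature's own spread on the calibrated scale and moderated spread on the relative scale, adjusted by Benjamini-Hochberg over all windows or all 139 regions with 3 or more kept windows, at a threshold of 0.05. It was tested on simulated data with independent windows, which do not cover the correlation between neighbouring windows. Pericentromeres reach 15 kb to each side of the highest 21-window running mean of Pk-tagged Scc1 without a break, arms leave out 100 kb around the break, and ends are the outer 20 kb. Named windows are those called, joined when at most 2 kb apart, up to 10 in each direction with both rad17 pds5-AID libraries outside both pds5-AID libraries. The compared libraries and region lists were chosen with earlier results of these data known. Alternatives changed the extract division, background, libraries, spread, replicate block, centring, pseudocount and extract filter.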

Additional observations from a re-analysis of the deposited data

Results flagged for a closer look

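In 9 regions beside the break the difference without Rad17 was larger in pds5-AID cells than in PDS5 cells, by the interaction contrast (rad17 pds5-AID minus pds5-AID) minus (rad17 minus wild type) relative to the library median (limma, adjusted p under 0.05). To the right of the break it was -1.80 at 0 to 5 kb and -0.97 at 5 to 10 kb. To the left it was -1.08 at 5 to 10 kb, -0.80 at 10 to 20 kb, -0.53 at 30 to 50 kb, -0.49 at 50 to 75 kb and -0.59 at 75 to 100 kb. The overlapping summary regions had -0.61 on the flank of 5 to 20 kb and -0.53 on the flank of 5 to 50 kb without the pericentromere.

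On the flank of 5 to 20 kb the call was lost without either rad17 pds5-AID replicate (-0.59 and -0.62), pds5-AID replicate 2 (-0.48) and wild-type replicate 1 (-0.48). The classes at 0 to 10 kb missed the threshold with the IP alone, as given with the results. Extract coverage at 0 to 5 kb right was 28.7% and 26.0% of the library median in rad17 pds5-AID, 24.4% and 14.96% in pds5-AID, 22.7% and 16.4% in rad17, and 23.5% and 21.4% in wild type. The part of extract coverage in the interaction was not tested.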

How the results depend on the processing

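No called result changed direction. With the IP alone 125 windows were called relative to the library median (23 higher, 102 lower), which include 40 of the 41 reported falls. On the calibrated scale 5 regions passed, among them 5 to 10 kb left (-2.59) and right (-2.61), while the interaction there missed the threshold (-0.78 left, -0.62 right). With the untagged signal subtracted 92 regions were called relatively, the interaction at 5 to 10 kb left missed (-1.10) and the pericentromeres passed (0.39). With only the 4 compared libraries 93 windows were called relatively. With moderated spread on the calibrated scale 3495 windows, 127 regions and 1 interaction were called, and 5 to 10 kb left (-2.69), right (-2.52) and the flank (-1.13) passed. With own spread on the relative scale 0 windows (705 at an unadjusted p under 0.05), 10 regions and 0 interactions were called, and the flank (-0.42) and the interactions at 5 to 10 kb (-1.08 left, -0.97 right) missed. Centring on the library mean left 1 interaction, with -1.002 left and -0.90 right at 5 to 10 kb. With an extract filter of 0.5 to 2 the flank interaction passed (-0.37). The classes at 0 to 5 kb right and 5 to 10 kb left then kept fewer than 3 windows and could not be fitted. The cause of the other changes was not tested. Other pseudocounts, the extract as deposited and all windows with extract above 0 kept these results on their side of the threshold, apart from 50 to 75 kb right (-0.24) and 3 single windows, which missed it with all windows.

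Deviations of same-numbered replicates correlated between groups at 0.0844 to 0.341, so not every pair passed 0.1 and the numbers were not taken as pairs. A correlation over windows cannot show a shift shared by a whole library, so it does not decide whether the numbers are pairs on the calibrated scale. There replicate 2 stood above replicate 1 in rad17 pds5-AID (0.28), pds5-AID (0.50), rad17 (0.30) and wild type (0.16). With the replicate block 2716 windows and 138 regions were called on the calibrated scale, 28 regions (11 higher, 17 lower) and 19 interactions on the relative scale, and these passed: 5 to 10 kb left (-2.69) and right (-2.52), the flank (-1.13) and the pericentromeres (-0.52) on the calibrated scale, the flank interaction (-0.38) and the pericentromeres (0.20) on the relative scale.

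Leaving out each of the 8 libraries in turn gave 20 to 112 relative windows, 0 to 94 calibrated and 15 to 33 relative regions, and 6 to 13 interactions. The ranges were -3.12 to -2.27 (5 to 10 kb left), -2.97 to -2.08 (right) and -1.46 to -0.81 (flank) on the calibrated scale, and 0.10 to 0.29 for the relative pericentromeres. The interaction ran from -1.31 to -0.84 at 5 to 10 kb left and from -0.47 to -0.30 on the flank, and the genome level difference from -0.96 to -0.47. Where a group kept 1 library, it was assumed to vary like the others. The lowest IP depth, 25.9 reads per window in rad17 pds5-AID replicate 1, and a design of 2 against 2 limit all of these.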
